A study of Mus musculus with 18 samples.

Results

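The 6 samples of adipocytes isolated from epididymal white adipose tissue (eWAT) are described here, out of 18 samples in all. They were chosen by their labels alone, and no measured value entered that choice. The other samples were 6 of inguinal adipocytes (iWAT) and 6 of whole brown adipose tissue (BAT). All came from wild-type male mice on high fat diet (HFD) for 12 weeks, aged 16 weeks per the study's notes; no control diet group was analysed here. The strain is given as C57BL/6 or C57BL/6J in the labels and as C57BL/6NTac in a note of the study, and 1 label field names regular chow although titles, protocol and design text all give HFD. Each eWAT sample is 1 animal (mice 1, 2, 3, 4, 5 and 16). Fat was digested with collagenase, passed through a strainer, and the floating fraction was kept, so any cell or fragment that floats with fat cells was also kept. The question was which transcripts make up this fraction and which of them differ between animals that were treated alike.

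White adipocytes store triglyceride in a single large droplet and secrete adipokines such as adiponectin (Adipoq) and leptin (Lep). In obesity, epididymal fat in mice is known for dying adipocytes ringed by macrophages, which take up lipid and turn on lysosomal genes. Macrophages of this kind are recognised by Cd68, a lysosomal membrane protein, and by genes such as Trem2, Gpnmb and Cd9. The surface of this fat pad is covered by mesothelium, marked by Upk3b, and the pad lies against the epididymis, whose epithelium secretes proteins into the sperm duct.

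Reads on annotated rows numbered 24655056 to 37438994 per sample (median 28885180), and all expression levels below are the deposited RPKM, that is, reads scaled by transcript length and by library size. Each gene is represented by 1 row per symbol, and 14059 of 52093 symbols averaged 1 RPKM or more across the animals. Pearson's r of log2(RPKM + 0.1) between mice was 0.959 to 0.991 over the 15 pairs, a description across genes that are not independent. The libraries were run on 2 lanes, with mice 1 and 16 on lane 2. No gene of 19672 differed between lanes at an adjusted p under 0.05 in edgeR's quasi-likelihood test (0% called); 768 had an unadjusted p under 0.05, and DESeq2 called 15.

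The label was checked first against its markers. Adipoq was measured at 199, 549, 150, 579, 449 and 396 RPKM in mice 1, 2, 3, 4, 5 and 16 (mean 387). Cd68 was at 680, 457, 681, 500, 540 and 547 RPKM (mean 567). Upk3b was at 0.145, 0.611, 0.581, 1.35, 0.229 and 0.913 RPKM. Adipoq was thus lowest in mice 1 and 3, Cd68 was highest in the same animals, and the mesothelial marker was near the floor everywhere. Fat cell genes were abundant in every sample, but Cd68 exceeded Adipoq in mice 1, 3, 5 and 16, so the floating fraction held macrophage RNA at levels per length like those of the adipocyte marker.

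Among the coding genes, Fabp4, a fatty acid carrier protein of adipocytes and macrophages, ranked highest at 4050.3 ± 1541.7 RPKM (SD, n = 6; mm9 chr3:10204342-10208576). It was followed by Psap, the precursor of the saposins that help break down sphingolipids in lysosomes (2946.5 ± 565), and by Lyz2, the lysozyme of myeloid cells (2212.4 ± 591; mm9 chr10:116714390-116719377). Fabp4 was measured at 2729.9, 5993.7, 1994.5, 5456.9, 4345.8 and 3780.8 RPKM in mice 1, 2, 3, 4, 5 and 16. Lyz2 was at 3022.0, 1977.5, 2899.9, 1756.4, 1690.7 and 1927.9 RPKM. In mice 1 and 3 the order of these genes was turned around, with Lyz2 and Psap above Fabp4, whereas Fabp4 was highest in the other 4 animals.

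The 20 coding genes of highest mean RPKM fell into a few kinds of product. Lysosomal and phagocytic genes were Psap, Lyz2, the cathepsins Ctsb (1158.0 ± 153) and Ctss (821 ± 172), and the galectin Lgals3 (923 ± 140). Iron and peroxide handling genes were the ferritin chains Fth1 (1269.3 ± 323) and Ftl1 (1026.1 ± 181) and glutathione peroxidase Gpx1 (789 ± 112). Lipid genes were Fabp4, the desaturase Scd1 (880 ± 434), Apoe (778 ± 129), lipoprotein lipase Lpl (760 ± 43.3) and the fatty acid transporter Cd36 (707 ± 90.2). Secreted plasma proteins were haptoglobin Hp (1160.7 ± 563) and selenoprotein P, listed as Sepp1 (689 ± 101). Actb, Tmsb4x and Vim, which encode cytoskeletal proteins, and H2-D1, a class I MHC chain, were also among them. Car3, carbonic anhydrase of fat and muscle, ranked just outside at 678 ± 336.

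Abundance and evenness did not go together. Lpl ranged only from 705 to 811 RPKM and Vim from 703 to 811, a ratio of 1.15 between the highest and lowest mouse in each. Scd1 ranged from 288 to 1367.7 RPKM (4.75 times), Car3 from 245 to 1156.8 (4.73 times) and Hp from 508 to 1932.6 (3.81 times). Gpnmb, a glycoprotein of lipid-laden macrophages, was at 763, 499, 766, 456, 407 and 537 RPKM in mice 1, 2, 3, 4, 5 and 16, so the lysosomal genes were higher in mice 1 and 3 and the lipid synthesis genes lower there.

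**Figure D1:**
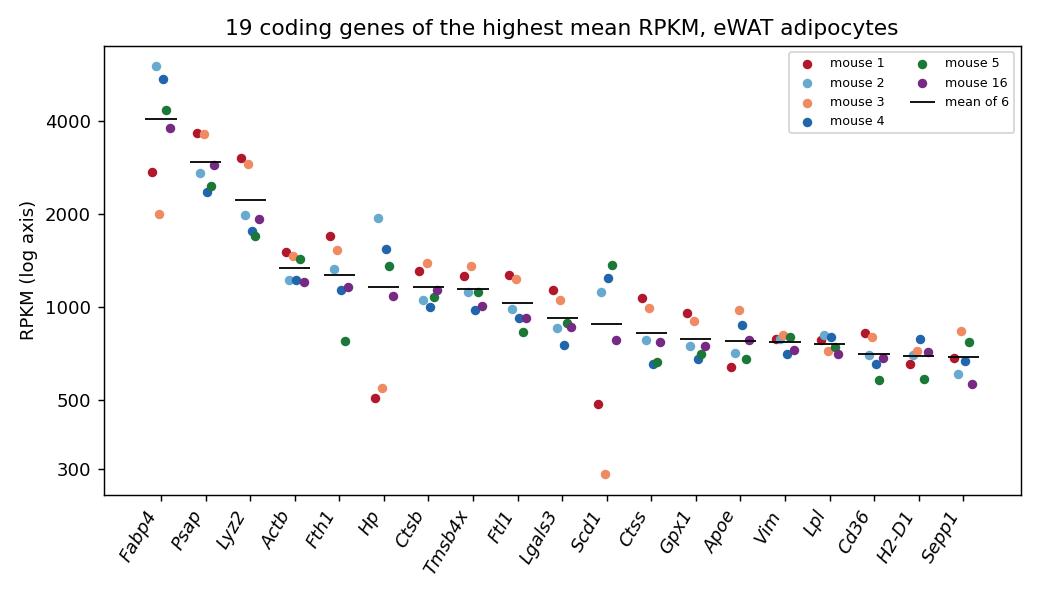
RPKM on a log axis of 19 of the 20 coding genes of highest mean level in eWAT adipocytes, with 1 point per mouse (6 mice) and a line at the mean. Mice 1 and 3 sit below the others for Fabp4, Hp and Scd1 and above them for Psap, Lyz2 and Ctss, while Vim and Lpl span a ratio of 1.15.

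Ranked over all rows of at least 200 bases outside the mitochondrial chromosome, the 20 highest symbols were mostly not separate genes. Of the 20, 5 were coding genes (Fabp4, Psap, Lyz2, Actb and Fth1) and 7 overlapped nuclear copies of mitochondrial DNA. Another 7 overlapped the row of another abundant gene (among them Fth1, Ctsd, Tmsb4x, Actb and Tpt1). The last was Gm10116, a single-exon row on chromosome 13 that is not listed as a coding gene, and the source of its reads was not tested. Gm1974, in place 20, had a mean of 1191.9 RPKM and Hp, in place 21, had 1160.7 RPKM. The 20 symbols took 19.8% ± 1.09 (SD, n = 6) of the summed RPKM and the 1000 highest took 61.4% ± 0.91. Some of these rows overlap each other, such as COX3 with COX2, Actb with Gm3903 and Fth1 with LOC100504670. The same reads can therefore enter these shares more than once. Because the treatment of reads that map to several places is not given in the sources used here, the levels of these overlapping or duplicated rows are uncertain. The row of Gapdh, a gene that every cell uses, held only 51 to 157 reads per sample on chromosome 6; the cause was not tested.

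The highest rows, those listed as LOC100503946, COX2, LOC100503984 and COX3, had means of 8407.6, 8222.7, 8190.1 and 6507.6 RPKM and lie together on chromosome 1. The stretch chr1:24618374-24623027 of the NCBIM37 genome (the assembly also called mm9) aligned to bases 6390 to 11042 of the mitochondrial genome with 4651 of 4654 bases identical (99.94%), 2 substitutions and 1 gap base. The copy on chromosome 2, chr2:22442808-22446054, aligned with 97.36% identity and 72 substitutions. The windows below of 31 bases are shown because they hold the few letters by which a read could be placed in the nucleus or the mitochondrion; capitals mark each base that differs, and nuclear strands are turned to read with the mitochondrial plus strand. The first pair carries T9461C and the other pair C5381A and A5387G, each written with the mitochondrial base, the position from 1 at the start of the mitochondrial sequence, and the nuclear base.
Mitochondrial, chrM:9446-9476, plus strand: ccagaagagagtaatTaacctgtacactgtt
Chromosome 1 copy, chr1:24619941-24619971, minus strand: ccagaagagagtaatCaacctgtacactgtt
Mitochondrial, chrM:5366-5396, plus strand: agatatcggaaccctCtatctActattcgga
Chromosome 2 copy, chr2:22445099-22445129, minus strand: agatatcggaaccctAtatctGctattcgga
With so few differences, the levels of the chromosome 1 rows cannot be told apart from those of mitochondrial transcripts for the same subunits. On the mitochondrial chromosome itself, COX1, a subunit of cytochrome c oxidase, had a mean of 5241.8 ± 851 RPKM. Rows there took 2.27 to 4.17% of reads per sample, with reads under the overlapping ND5 and ND6 rows counted in both. COX1 was at 4735.1, 5235.1, 3827.6, 6173.6, 5768.3 and 5710.8 RPKM in mice 1, 2, 3, 4, 5 and 16, lowest in mouse 3 and next lowest in mouse 1.

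Spread between animals was measured as the SD of log2(RPKM + 0.1) over the 6 mice, for symbols with a mean of at least 1 RPKM. The median SD was 0.167, which is 1.12-fold for 1 SD, against a median of 0.056 that read counting alone would give. An SD of at least 0.5 was reached by 911 symbols (6.48%). In the other groups the median was 0.158 for iWAT adipocytes and 0.208 for BAT, values given as a description only. The first principal component of all these genes held 61.6% of the variance, with mice 1 and 3 at -0.510 and -0.590 and the other 4 between 0.037 and 0.446. The next component held 14.5%, and mouse 5 (-0.735) stood farthest from 0 on it.

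The 30 symbols of highest spread, 24 of them coding genes, had SDs from 3.64 for Gpx5 down to 0.95 for Serpina3m, and the symbol in place 31 had 0.949. Most of them fell into 5 patterns: genes of the epididymis, rows of the Mid1 locus, genes low in mouse 5 alone, genes of the endothelium that were high in mouse 4, and fat cell genes low in mice 1 and 3. Each is described in turn, from values only, and membership of a pattern carries no test because it was read from these same values.

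**Figure D2:**
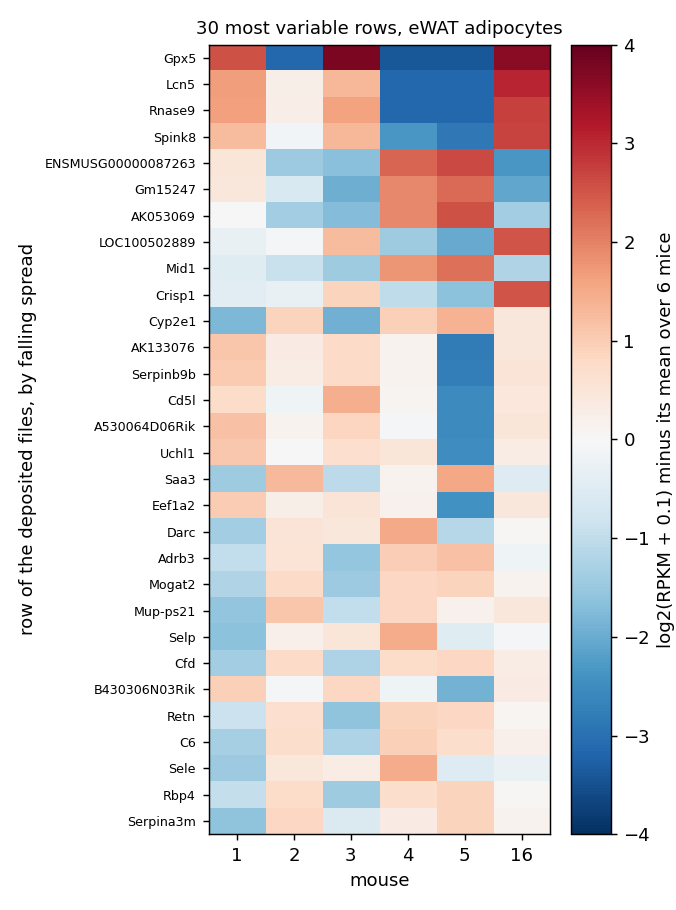
The 30 symbols of highest spread, as log2(RPKM + 0.1) minus the row's mean over the 6 mice (red higher, blue lower). Gpx5 at the top is high in mice 1, 3 and 16, the Mid1 rows are high in mice 4 and 5, Serpinb9b and Cd5l are low in mouse 5, and Cfd, Retn and Rbp4 are low in mice 1 and 3.

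Gpx5, a secreted glutathione peroxidase of the epididymis, had the highest spread of all (mm9 chr13:21378298-21384600). It was measured at 6.01, 0.0176, 14, 0, 0 and 12.5 RPKM in mice 1, 2, 3, 4, 5 and 16, from 0 to 702 reads. Lcn5, an epididymal lipocalin, was at 2.71, 0.929, 2.12, 0, 0 and 7.25 RPKM. Crisp1, a sperm-coating protein, was at 0.515, 0.584, 1.45, 0.319, 0.167 and 4.74 RPKM. Both genes were highest in mouse 16 and lowest in mice 4 and 5, and Gpx5 was highest in mouse 3. Rnase9 and Spink8 were also among the 5 highest by spread. The 7 genes of the epididymal epithelium list summed to 5.97, 1.75, 9.28, 0.360, 0.167 and 15.9 RPKM. In the 6 iWAT adipocyte and 6 BAT libraries, Gpx5 had at most 1 read and Lcn5 had 0 reads in every library, the Gpx5 read being in iWAT adipocytes of mouse 16. No slope of this list but that of Rnase10 passed the test on Adipoq described below, where Rnase10 fell at -2.03 ± 0.57 (SE; adjusted p = 0.04) from levels of at most 0.869 RPKM, a call lost without mouse 1, 2, 4 or 5 (adjusted p up to 0.19).

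Mid1, a ubiquitin ligase gene on the X chromosome (mm9 chrX:166123129-166428730), was at 0.852, 0.621, 0.397, 4.45, 6.02 and 0.471 RPKM. Mice 4 and 5 stood above the other 4 animals in Mid1, and so they did in Gm15247, whose row overlaps that of Mid1 and can share its reads. Mid1 did not keep to the animal: in iWAT adipocytes it was 0.905 and 0.776 RPKM in mice 4 and 5 but 3.23 and 2.5 in mice 3 and 16, and in BAT 2.48 in mouse 1, 1.47 in mouse 5 and 1.91 in mouse 18. The gene spans the boundary of the pseudoautosomal region, which is repeated between the sex chromosomes, and mapping there is uncertain.

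A set of 31 rows was low in mouse 5 and formed the second largest group when the 532 rows with an SD of at least 0.6 and a mean of at least 50 reads were clustered by correlation. Serpinb9b, a serine protease inhibitor, was at 61.1, 36.2, 50.9, 32.8, 4.25 and 42.1 RPKM in mice 1, 2, 3, 4, 5 and 16. Cd5l, a macrophage-secreted protein that protects against apoptosis, was at 12.4, 6.60, 20.4, 8.05, 1.19 and 10.0 RPKM. Mmp12, the macrophage elastase, was at 647, 377, 545, 356, 157 and 427 RPKM. In each, mouse 5 was the lowest and mouse 1 or 3 the highest. Uchl1, Eef1a2, Clec4d (a C-type lectin of myeloid cells), Procr and Panx1 shared the pattern.

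Several rows of that set encode enzymes of the antioxidant response. Prdx1, a peroxiredoxin, was at 285, 170, 211, 144, 65.0 and 159 RPKM. Gclm, the modifier subunit of the rate-limiting enzyme of glutathione synthesis, was at 32.8, 20.6, 26.5, 18.3, 7.64 and 21.4 RPKM. Akr1b8, an aldo-keto reductase, was at 151, 87.9, 133, 93.3, 29.2 and 100 RPKM, and the quinone reductase Nqo1 was at 4.18, 2.63, 4.11, 2.68, 0.970 and 2.90 RPKM. Mouse 5 was below the other 5 animals in each. A list of 28 genes of glutathione, thioredoxin, haem and iron handling was then drawn up, after these values had been seen. It includes Gclm, Prdx1, Akr1b8, Nqo1, Cbr3 and Slc40a1, which belong to the set low in mouse 5. The list's count and median below were thus partly set by the choice of genes, and they are a description only. Of the 28 genes, 22 (78.6%) were lowest in mouse 5, against 2183 of 14059 genes (15.5%) over all. The median difference of mouse 5 from the median of the other mice was -0.62 on the log2 scale for the list and -0.02 for all genes. Among the abundant genes, Hmox1, the haem oxygenase, was at 235, 169, 226, 160, 110 and 173 RPKM, and Fth1 at 1694.4, 1323.7, 1526.3, 1133.2, 778 and 1160.9 RPKM. Slc7a11, Gstm1, Mgst1, G6pdx, Sqstm1 and Gpx1 were not lowest in mouse 5.

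The promoters of Gclm and Prdx1 are shown because they hold the core of the antioxidant response element, TGACNNNGC on either strand (capitals), where small Maf proteins and NRF2 are known to bind. The core was found in the 250 bases before the start of 4 of the 20 genes of the low-in-mouse-5 set that have a RefSeq promoter entry (20%). These were Gclm, Prdx1, Procr and Pard6b. It was found in 4 of 23 antioxidant genes (17.4%), namely Gclm, Prdx1, Mgst1 and G6pdx. Of these, Mgst1 and G6pdx were not lowest in mouse 5. Akr1b8 and Nqo1, which were, have an entry without the core. The share was 12% of the 9972 tested genes with an entry and 10.1% of all 27025 promoters searched. The sequences are the last 150 bases before the start, 5′ to 3′ on the gene's strand, from RefSeq on GRCm38.p6.
Gclm, chr3:122245407-122245556, plus strand: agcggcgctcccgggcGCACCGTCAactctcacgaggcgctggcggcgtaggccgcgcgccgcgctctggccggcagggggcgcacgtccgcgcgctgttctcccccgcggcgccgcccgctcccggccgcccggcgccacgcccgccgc
Prdx1, chr4:116685449-116685598, plus strand: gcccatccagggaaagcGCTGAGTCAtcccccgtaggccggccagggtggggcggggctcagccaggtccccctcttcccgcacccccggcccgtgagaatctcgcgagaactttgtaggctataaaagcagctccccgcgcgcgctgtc
A match of letters is a description and does not show that a factor binds there.

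Several cytokine genes had the opposite extreme in the same animal. Tnf was at 70.7, 81.0, 93.4, 144, 234 and 94.4 RPKM in mice 1, 2, 3, 4, 5 and 16. Cxcl1, a neutrophil-attracting chemokine, was at 313, 317, 344, 533, 669 and 338 RPKM, and Cxcl2 at 245, 196, 275, 396, 562 and 242 RPKM. Mouse 5 was the highest and mouse 4 the next in all of these. The same order held for Cxcl3, Il1a, Il1b and Nfkbia, and Ccl4 had mouse 4 first and mouse 5 next. In 8 of 12 cytokine and feedback genes, a set drawn up after the values were seen, mice 4 and 5 were thus the highest pair, against 734 of 14059 genes (5.22%) over all. Il6 was highest in mouse 4 (18.3 RPKM) and at 8.53 in mouse 5. Ccl3 was highest in mouse 3 (44.9 RPKM), and Ccl2 and Tnfaip3 had mouse 5 first but mouse 4 not next. The 12 genes of the inflammatory cytokine list, a partly different set, summed to 831, 829, 941, 1336.2, 1800.8 and 870 RPKM. Ptgs2 (16.1 RPKM) and Nos2 (0.939 RPKM) of that list were highest in mouse 3. Only Saa3 of that list rose with Adipoq, a call lost without mouse 1, 2 or 3 (edgeR, adjusted p up to 0.17).

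The promoters of the 3 chemokine genes are shown because each holds a decamer of the NF-kappaB site, marked in capitals. On either strand, the decamer was found before the start of 4 of 10 cytokine genes with a promoter entry (40%: Cxcl1, Cxcl2, Cxcl3 and Nfkbia). It was found in 10 of 9972 tested genes (0.1%) and in 0.0851% of all promoters. The set was drawn up after its values were seen, and Cxcl1, Cxcl2 and Cxcl3 lie close together on chromosome 5. These shares are therefore a description only. The sequences are again the last 150 bases before the start, from RefSeq on GRCm38.p6.
Cxcl1, chr5:90891095-90891244, plus strand: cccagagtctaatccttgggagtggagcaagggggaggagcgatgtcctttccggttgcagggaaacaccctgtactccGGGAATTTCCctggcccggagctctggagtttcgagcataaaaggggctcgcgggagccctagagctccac
Cxcl2, chr5:90903749-90903898, plus strand: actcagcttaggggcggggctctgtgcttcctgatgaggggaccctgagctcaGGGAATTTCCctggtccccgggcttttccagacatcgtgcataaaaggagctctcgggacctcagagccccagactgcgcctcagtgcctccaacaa
Cxcl3, chr5:90785951-90786100, plus strand: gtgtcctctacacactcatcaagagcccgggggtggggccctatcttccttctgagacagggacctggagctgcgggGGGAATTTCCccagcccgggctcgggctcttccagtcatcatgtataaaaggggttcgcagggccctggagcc
The matches begin 71, 97 and 73 bases before the start.

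**Figure D3:**
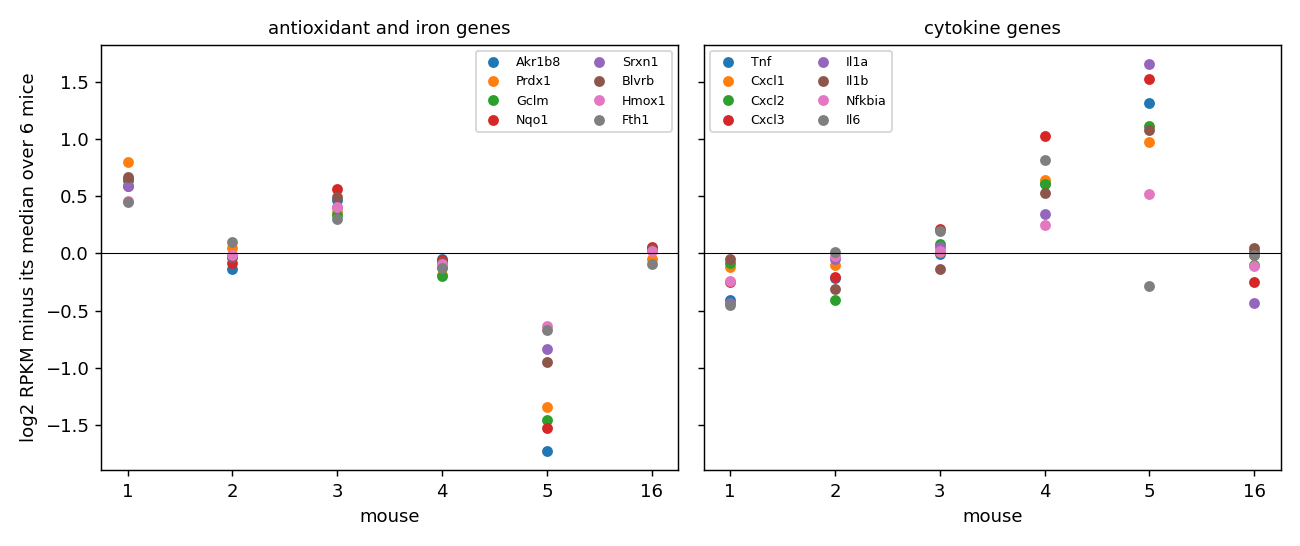
Log2 RPKM of 8 antioxidant and iron genes (left) and 8 cytokine genes (right) minus each gene's median over the 6 mice, with 1 point per gene and mouse. In mouse 5 the 8 antioxidant points lie below 0, with Akr1b8 the lowest, and 7 of 8 cytokine points lie above 0, with Il6 the exception. Both panels show chosen genes of longer sets, and Ccl2, Ccl3, Ccl4 and Tnfaip3 of the cytokine set are not drawn.

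Endothelial adhesion genes were highest in mouse 4. Selp, P-selectin, was at 1.71, 6.29, 7.75, 15.6, 3.85 and 5.29 RPKM. Sele, E-selectin, was at 0.720, 3.02, 2.69, 6.26, 1.49 and 1.78 RPKM, and the chemokine-binding receptor of venules Darc (now Ackr1) at 0.860, 3.54, 3.37, 7.13, 1.04 and 2.52 RPKM. Mouse 1 was lowest and mouse 4 highest in all of these. The 9 genes of the endothelial list summed to 50.2, 63.6, 91.8, 106, 54.5 and 84.0 RPKM, again lowest in mouse 1 and highest in mouse 4, and 0 of them passed on Adipoq in the edgeR test described below (median slope 0.06). In bulk samples such as these, fewer cells of a type and less RNA per cell cannot be told apart.

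The widest pattern was that of fat cell genes. Of the 532 clustered rows, 425 fell in a single group, with mean log2 deviations of -0.77, 0.56, -1.01, 0.62, 0.41 and 0.18 in mice 1, 2, 3, 4, 5 and 16. Cyp2e1, a cytochrome P450, was at 2.29, 15.2, 2.07, 15.8, 21.7 and 11.2 RPKM. The adipokine resistin, Retn, was at 17.4, 50.1, 10.2, 58.3, 55.4 and 33.0 RPKM, and adipsin, Cfd, at 43.7, 197, 48.4, 191, 202 and 142 RPKM. Adrb3, the beta-3 adrenergic receptor of fat cells, was at 3.03, 8.87, 2.01, 12.2, 13.7 and 5.40 RPKM. None of these had an overlap between the pair of mice 1 and 3 and the other 4 animals. They were taken from that group and from the symbols of highest spread, so this separation was largely set by the choice. Its share over all genes was not counted.

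To see which genes followed the adipocyte marker, each gene's counts were fitted on log2(RPKM + 0.1) of Adipoq across the 6 mice with edgeR's quasi-likelihood test, so that a slope of 1 means a gene that changed in proportion to Adipoq. Of 19671 genes, 2410 (12.3%) had a positive slope and 1217 (6.19%) a negative slope at an adjusted p under 0.05. Without TMM scaling, which corrects for differences in RNA composition, the split was 2132 positive and 1884 negative. Positive slopes were steep, with a median of 0.57 and 234 genes of at least 1, and negative slopes were shallow, with a median of -0.26 and 5 genes of at least 1 in size, beside a median of -0.01 over all genes tested. The number of calls was 1953 without mouse 1, 1882 without mouse 3, 2375 without mouse 4 and 0 without mice 1 and 3 together, a fit of only 4 samples. The share of reads on rows of the mitochondrial chromosome moved with the same animals. It was 2.97% and 2.27% in mice 1 and 3 and 3.39 to 4.17% in the others. This share leaves out the rows in nuclear copies of mitochondrial DNA and counts reads under the overlapping ND5 and ND6 rows in both. Its part in the slopes was not tested. RPKM and counts are shares of a library, so a rise of one class of RNA lowers the shares of the others.

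In the adipocyte identity list, 18 of the 19 genes tested rose with Adipoq (background 12.3%), with a median slope of 0.92, and without mice 1 and 3 the median slope was 0.76 with 0 calls. Plin1, the coat protein of the lipid droplet, was at 61.7, 149, 50.5, 178, 122 and 132 RPKM in mice 1, 2, 3, 4, 5 and 16. Its slope was 0.92 ± 0.07 (SE; adjusted p = 6.9e-05). Cidec, which fuses lipid droplets, was at 256, 639, 182, 591, 578 and 437 RPKM with a slope of 0.94 ± 0.07, and Lep at 187, 475, 134, 381, 495 and 338 RPKM with 0.94 ± 0.12. The lipases rose more shallowly or alike, with 0.90 ± 0.05 for hormone-sensitive lipase Lipe and 0.63 ± 0.06 for Pnpla2. The regulator Pparg had the shallowest called slope, 0.38 ± 0.05, at 28.5 to 48.2 RPKM. Cd36 was the exception, at -0.16 ± 0.08 (adjusted p = 0.19). The list summed to 5350.6, 11179.0, 4156.8, 10917.0, 8953.6 and 7933.1 RPKM.

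Of the 10 fatty acid synthesis genes, 9 rose with Adipoq (background 12.3%), with a median slope of 0.86. Without mice 1 and 3 the median slope was 0.56 with 0 calls. Scd1 was at 486, 1119.1, 288, 1241.3, 1367.7 and 780 RPKM, with a slope of 1.08 ± 0.14 (adjusted p = 0.00095). Fasn, the fatty acid synthase, was at 38.9, 86.6, 26.6, 98.2, 98.5 and 72.1 RPKM, with 0.98 ± 0.09. Mice 1 and 3 were again below the others. Acly, the enzyme that makes cytosolic acetyl-CoA, ranged only from 19.3 to 26.8 RPKM and did not pass (0.19 ± 0.07, adjusted p = 0.085). In the brown adipocyte list of 6, Cidea, Cox8b and Ppargc1a rose with Adipoq (background 12.3%). Of these, Cidea and Ppargc1a lost their calls when mouse 1, 3 or 4 was left out (edgeR, adjusted p up to 0.12 and 0.15). Ucp1 stayed at 0.123 to 0.370 RPKM.

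The 10 genes of smallest adjusted p with a positive slope all had values of 4.2e-05. Among them were Hspa12a, Ptger3, a prostaglandin E receptor, Slc36a2, an amino acid transporter, the pyruvate carboxylase gene Pcx, Fitm2, which helps form lipid droplets, Sncg, a synuclein of fat and nerve, Lctl and Serpina3c. A cDNA row in the same 10 lies wholly inside the Adipoq row on the other strand; the libraries do not mark strand, so it shares reads with Adipoq and its slope is not a separate result. Their slopes lay between 0.86 and 1.13. Sncg was at 120, 349, 88.9, 331, 282 and 223 RPKM and Pcx at 26.6, 68.6, 20.5, 76.3, 54.9 and 53.0 RPKM, and in both the levels of mice 1 and 3 lay below those of the other 4 animals.

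**Figure D4:**
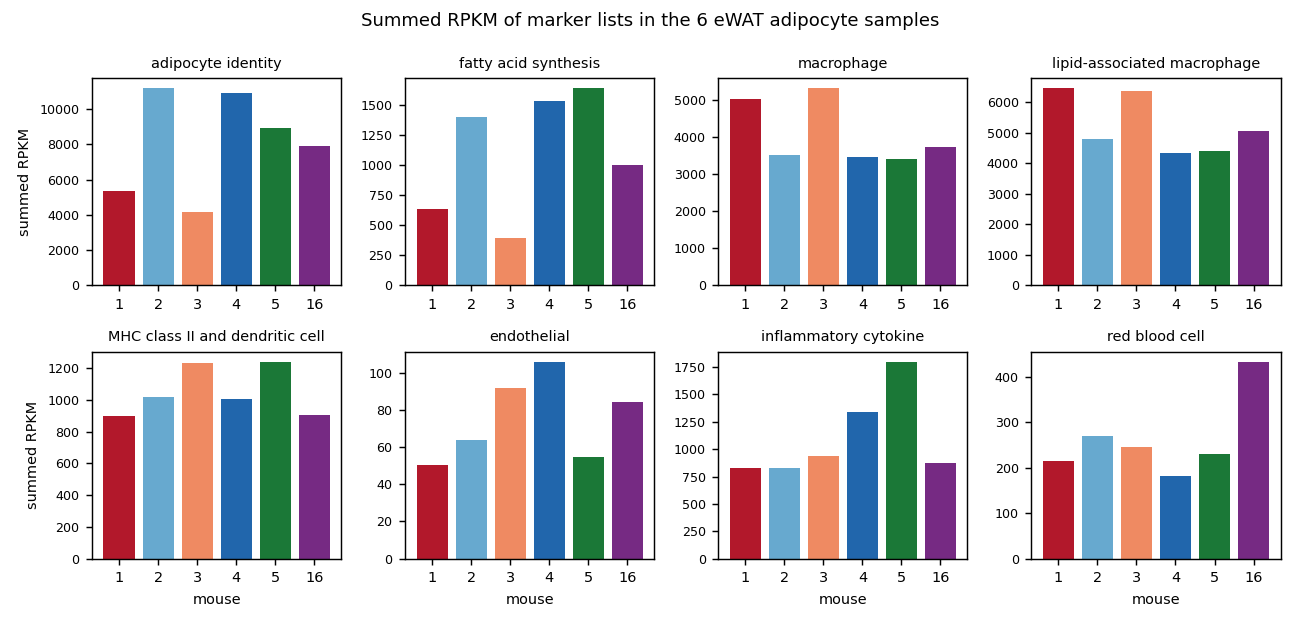
Summed RPKM (bars) of 8 gene lists in each of the 6 eWAT adipocyte samples, with the mouse number on the horizontal axis and 1 library per bar. Adipocyte identity is lowest in mice 1 (5350.6) and 3 (4156.8), macrophage highest in the same mice (5018.7 and 5312.3), inflammatory cytokine highest in mouse 5 (1800.8) and red blood cell highest in mouse 16 (434, with the reads of Hbb-b1 and Hbb-b2 counted in both).

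Macrophage genes went the other way with shallow slopes. Of 14 genes in the macrophage list, 9 fell with rising Adipoq (background 6.19%) and 0 rose, with a median slope of -0.25. The count was 6 without mouse 1, 3 without mouse 3, 4 without mouse 4 and 6 without mouse 2. The F4/80 gene, listed as Emr1, was at 120, 87.9, 138, 91.4, 99.3 and 98.2 RPKM, with a slope of -0.29 ± 0.05 (adjusted p = 0.0047, and 0.088 without mouse 3). The integrin Itgam was at 82.7, 52.3, 80.2, 46.4, 47.4 and 63.8 RPKM, with -0.41 ± 0.07 (adjusted p = 0.0048), and Lyz2 had -0.40 ± 0.08 (adjusted p = 0.0093). The complement chains C1qa and C1qc and the genes Fcgr1, Mertk and Cd163 did not pass. The list summed to 5018.7, 3503.4, 5312.3, 3469.5, 3405.5 and 3723.9 RPKM, with mice 1 and 3 above the other 4.

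Of the 14 lipid-associated macrophage genes, 8 fell with rising Adipoq (background 6.19%) and 0 rose, with a median slope of -0.28. The count was 2 without mouse 1, 3 without mouse 3, 3 without mouse 4 and 5 without mouse 2. Trem2, a lipid-sensing receptor, was at 75.9, 53.5, 82.1, 51.0, 48.9 and 63.4 RPKM, with -0.34 ± 0.06 (adjusted p = 0.0043). Lipa, the acid lipase of lysosomes, was at 292, 200, 295, 187, 194 and 214 RPKM, with -0.34 ± 0.06 (adjusted p = 0.0041). Gpnmb had -0.41 ± 0.08 (edgeR, adjusted p = 0.01, and up to 0.055 over the alternative fits that kept mouse 1 or 3). Without mice 1 and 3 together its slope was -0.16 ± 0.37. Mmp12, Itgax, Spp1, Ctsb, Ctsl and Fabp5 did not pass, and Mmp12 and Itgax were lowest in mouse 5. Among the 30 most abundant coding genes, 8 fell (Psap, Lyz2, Lgals3, Ctss, Gpx1, Ctsd, Gpnmb and Cd68) and 6 rose (Fabp4, Hp, Scd1, Car3, B2m and Gsn). Over all genes tested, 6.19% fell and 12.3% rose. The median of mean RPKM was 10.2 for falling and 3.99 for rising genes against 2.91 for all tested, so a set picked for abundance is not directly comparable. The falling count was 1 without mouse 1, 1 without mouse 3, 2 without mouse 4, 5 without mouse 2 or mouse 16 and 4 with lane as a covariate, while the rising count was 5 or 6 in these fits; without mice 1 and 3 together both were 0.

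MHC class II genes passed the test on neither marker. Cd74, the invariant chain, was at 469, 520, 637, 522, 633 and 446 RPKM, highest in mice 3 and 5, with a slope on Adipoq of -0.04 ± 0.10 (adjusted p = 0.85). H2-Ab1 was at 191, 226, 267, 222, 280 and 204 RPKM, with 0.00 ± 0.10. Of 8 genes of that list tested, 0 passed in either direction, the median slope was -0.03, and the dendritic cell genes Flt3, Cd209a, Clec9a and Xcr1 were at 0.412 RPKM or less. The slopes of the mouse 5 genes did not pass either, with -0.43 ± 0.22 for Gclm and 0.43 ± 0.26 for Tnf.

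**Figure D5:**
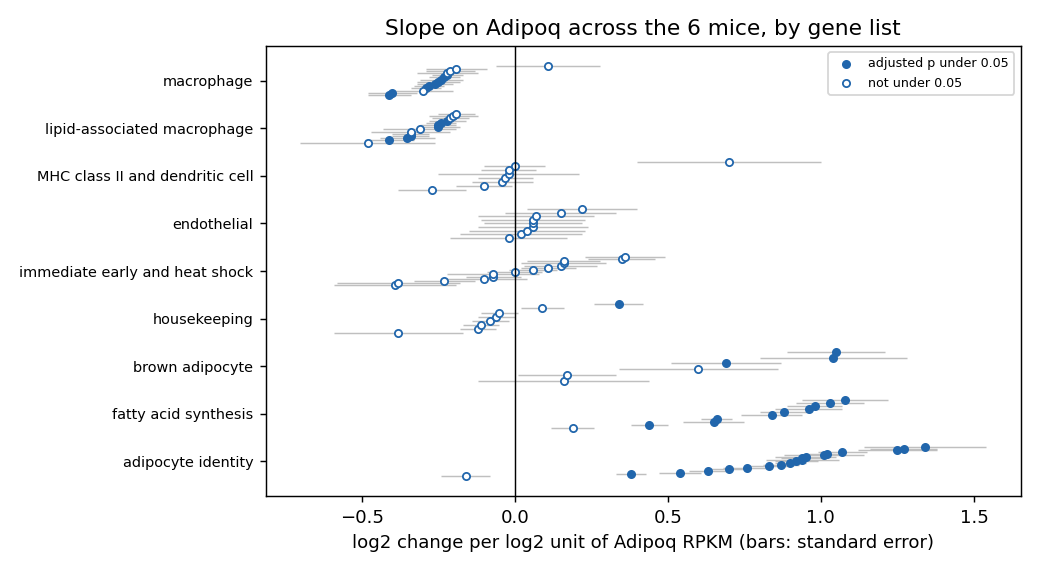
Slope of each gene on Adipoq across the 6 mice (log2 change per log2 unit, 1 point per gene, bars 1 SE), by gene list; filled points have an adjusted p under 0.05. Adipocyte identity and fatty acid synthesis genes lie to the right except Cd36 (-0.16), the genes of both macrophage lists lie left of 0 with small slopes (medians -0.25 and -0.28) except Cd163 (0.11), and MHC class II genes lie around 0 (median -0.03).

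The 10 genes of smallest adjusted p with a negative slope included Vsig8 (-0.43 ± 0.04), Cd300lb, a myeloid receptor, Dok2, an adaptor of blood cells, B4galnt1, a ganglioside synthase, Nfam1, an immune receptor, and Slc26a10. The rows of B4galnt1 and Slc26a10 overlap on opposite strands, so their slopes (-0.35 ± 0.04 each) cannot be told apart in these unstranded libraries. Cd300lb was at 27.5, 18.4, 31.5, 16.4, 17.2 and 20.7 RPKM, with -0.44 ± 0.05 (adjusted p = 0.00042). Also among them were LOC497266, a row named only by an Ensembl identifier and a cDNA row.

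The promoters of the genes that fell are described here because the letters GAGGAAGT, the core bound by the myeloid ETS factor PU.1, differed in share. They were found on either strand before the start of 39 of 752 genes with negative slopes (5.19%), of 12 of 1366 with positive slopes (0.878%), of 253 of 9972 tested genes (2.54%) and of 2.44% of all promoters. The lysosomal E-box TCACGTGA was found in 2.13%, 0.732%, 1.49% and 0.803% of the same sets. The shorter E-box CACGTG, which lies within it, was found in 11%, 7.39%, 8.27% and 6.05%, and TATAAA in 5.19%, 7.1%, 6.62% and 13%. With TGACNNNGC and the NF-kappaB decamer, 6 motifs were searched in all, and no test was made. The 3 genes of smallest p that hold GAGGAAGT are shown by their last 60 bases before the start, and Ctsd, the cathepsin D gene that fell with Adipoq (-0.25 ± 0.07, adjusted p = 0.045), by its last 150 with TCACGTGA in capitals. The Ctsd call was lost with lane as a covariate, without the filter on low counts and without any 1 of mice 1, 2, 3, 4 or 16 (adjusted p up to 0.18).
Vsig8, chr1:172559846-172559905, plus strand: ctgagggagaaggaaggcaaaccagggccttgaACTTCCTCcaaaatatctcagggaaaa
Cd37, chr7:45238840-45238899, minus strand: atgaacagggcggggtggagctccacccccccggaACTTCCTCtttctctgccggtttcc
Inpp5d, chr1:87620252-87620311, plus strand: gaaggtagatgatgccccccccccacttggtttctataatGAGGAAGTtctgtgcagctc
Ctsd, chr7:142387828-142387977, minus strand: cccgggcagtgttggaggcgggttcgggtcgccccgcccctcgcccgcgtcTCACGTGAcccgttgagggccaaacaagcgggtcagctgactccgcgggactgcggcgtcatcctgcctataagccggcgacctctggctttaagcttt
In Vsig8 and Cd37 the motif stands on the other strand, as ACTTCCTC, and it begins 27 and 25 bases before the start, against 20 bases in Inpp5d.

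Fitted on Cd68 in place of Adipoq, 742 genes (3.77%) had a positive slope and 1912 (9.72%) a negative slope of 19671 tested. Without TMM scaling these were 1154 and 1742. The adipocyte identity list had 19 negative calls of 20 tested (median slope -3.03) and the macrophage list 6 positive of 13 (median 0.80). The slopes on Cd68 are steep for fat cell genes because Cd68 itself spans only 457 to 681 RPKM. The count of calls was 505 without mouse 1, 372 without mouse 3, 1490 without mouse 4 and 0 without mice 1 and 3 together. Both fits use the same 6 libraries, so neither is independent of the other. Fitted on Upk3b, 0 of 19671 genes passed with either sign (0% each) in edgeR's quasi-likelihood test; 1476 had an unadjusted p under 0.05 and DESeq2 called 140. Of the 11 mesothelial genes only Lrrn4 had a mean of at least 1 RPKM, and the list summed to 2.72 to 7.60 RPKM.

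Across the 6 mice, log2 levels of Adipoq and Cd68 had Pearson r = -0.957 (two-sided exact permutation p = 0.014, adjusted p = 0.042 over 12 pairs) and Spearman rho = -0.943 (exact p = 0.017, adjusted p = 0.05). Adipoq with Plin1 gave r = 0.989, with Cidec 0.989 and with Fabp4 0.980 (exact permutation p = 0.0056 and adjusted p = 0.022 for each), with rho = 0.943 in all of them. Adipoq lay in 2 separate ranges, 150 to 199 RPKM in mice 1 and 3 and 396 to 579 RPKM in the others, so these coefficients lean on that gap. Without mice 1 and 3, r was -0.813 for Cd68, 0.832 for Plin1, 0.841 for Cidec and 0.954 for Fabp4 over 4 mice, too few for a test. For Lep (0.954 to 0.304), Lyz2 (-0.924 to -0.053), Ctss (-0.895 to -0.297) and Gpnmb (-0.916 to -0.220) r was much closer to 0 without mice 1 and 3, and the relation did not pass the correction with them (exact permutation, adjusted p = 0.053, 0.12, 0.095 and 0.094). The r of Adipoq with Cd74 (-0.193), Msln (0.309) and Upk3b (0.444), and of Cd68 with Upk3b (-0.504), did not pass (exact permutation, adjusted p = 0.73, 0.58, 0.41 and 0.37). Within the 4 mice of lane 1, r of Adipoq was -0.952 with Cd68 and 0.992 with Plin1, and lane 2 held only 2 mice.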

How the data were processed

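RNA of adipocytes from 6 eWAT samples was sequenced by the authors (RIN above 8, NEBNext Ultra libraries, which do not mark strand, on an Illumina sequencer, mm9). The submitters' processing notes name cutadapt 1.16 and HISAT2 2.1.0; the counting program and how multi-mapping reads were counted are not given in the sources used here. The deposited tables hold raw read counts and RPKM per transcript row, with the transcript length in bases (other value). No pooling was done by the authors. Samples were grouped by their labels. For each symbol the row of highest mean RPKM over 18 samples was kept (1220 of 52093 symbols had several rows).

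Genes, gene lists (24) and motifs were chosen with earlier results of these data known. Abundance is the mean RPKM, and spread the SD of log2(RPKM + 0.1) where the mean was at least 1. Genes named are the 3 markers, the 20 highest by abundance, the 30 highest by spread, the 10 smallest adjusted p per direction of the Adipoq slope, and list members; some of these genes are not reported here; rows under 200 bases and mitochondrial rows were ranked apart. Coding genes were those whose symbol names a coding gene of GENCODE vM1 at that place. This coding ranking, the antioxidant and cytokine sets and the genes taken from the clusters were chosen after their values were seen. Slopes were fitted with edgeR 4.0.16 on counts (quasi-likelihood, TMM, mean count at least 10 over the 6 mice, Benjamini-Hochberg at 0.05), after a test on simulated data. DESeq2 1.42.0, limma 3.58.1, other filters and scalings, lane as a covariate and leaving out each mouse were alternatives. The p-values measure the spread between 6 animals. Correlations were tested by all 720 orders of the mice (smallest two-sided p 0.0028). Nuclear copies were aligned with blastn 2.17.0+. Counts cover counting error only. Depth is 24655056 to 37438994 reads per sample.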

Additional observations from a re-analysis of the deposited data

Results flagged for a closer look

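In each group of 6 mice a gene was singled out when the gap between its highest or lowest sample and the nearest other sample took a larger part of the whole range than Dixon's 95% critical value allows. Of 257 genes checked, 15 were singled out. A rate of 1 in 20 would give 12.8, but that rate holds for independent genes not chosen by their values. Some of these genes were chosen by their spread or after their values were seen, and many vary together. The counts are therefore a description only. By mouse, 7 were in mouse 16, 4 in mouse 3, 3 in mouse 2 and 1 in mouse 5. As the rows of Hbb-b1 and Hbb-b2, and those of Hspa1a and Hspa1b, overlap, the 15 stand for 13 loci.

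In mouse 16 the epididymal genes Lcn5 (7.25 RPKM, others 0 to 2.71), Spink8 (4.69, others 0 to 1.75) and Crisp1 (4.74, others 0.167 to 1.45) stood above the rest. The haemoglobin genes Hbb-b1 (133 RPKM, others 52.6 to 77.7), Hbb-b2 (137, others 54.2 to 80) and Hba-a2 (7.86, others 2.67 to 4.52) were also highest there; the Hbb-b1 and Hbb-b2 rows cover the same locus and count the same reads, so they are 1 observation. The clock output gene Dbp was at 4.43 RPKM in mouse 16 (others 2.59 to 3.11).

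In mouse 3 the heat shock genes Hspa1a (806 RPKM, others 259 to 435) and Hspa1b (677, others 221 to 371), whose rows cover the same locus and are 1 observation, and the complement gene C1qb (568, others 346 to 418) were the highest, and COX3, a row within a nuclear copy of mitochondrial DNA, was the lowest (4898.6, others 6521.5 to 7268.0). In mouse 2 the immediate early genes Fos (245 RPKM, others 332 to 354) and Dusp1 (176, others 286 to 347) were the lowest and Hprt (74.5, others 55.2 to 60.5) the highest. In mouse 5 the cytokine Il1a (17.8 RPKM, others 4.18 to 7.19) was the highest.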

How the results depend on the processing

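No called slope among the 300 named genes fitted changed sign under the alternatives run; 26 lost their call without mouse 3, 23 without mouse 1 and 98 without both. For Adipoq the number of calls (3627) stayed between 2914 and 4016 with DESeq2, limma, no filter, no TMM, summed rows or lane as a covariate, ranged from 1882 to 3570 when 1 mouse was left out (lowest without mouse 3) and was 0 without mice 1 and 3, an alternative chosen after seeing the data. For Cd68 (2654 calls) it was 1524 with lane as a covariate, 372 to 2714 when 1 mouse was left out and 0 without mice 1 and 3. The fits without 2 mice have 4 samples; the cause of the loss was not tested. For Upk3b and for the lanes (0 calls) DESeq2 gave 140 and 15. The r of Adipoq and Cd68 was -0.930 with TMM-scaled RPKM (exact permutation, adjusted p = 0.067) and -0.984 to -0.950 when 1 mouse was left out; that of Adipoq and Upk3b ranged from 0.183 to 0.724 and that of Cd68 and Upk3b from -0.672 to -0.187. The 20 most abundant symbols shared 11 with a ranking by read counts, and the 30 most variable shared 12 with a ranking of symbols of at least 5 RPKM; when 1 mouse was left out they shared 20 to 26. No paired analysis was possible because every result lies within 1 group of animals. Genes with under 10 reads, such as most T and NK cell markers, are beyond what this depth can compare.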

Other observations

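Lymphoid, mast cell and most neutrophil genes were near the floor, while fibroblast and red blood cell genes were not. Of the neutrophil genes, S100a8 and Csf3r (0.917 to 1.38 RPKM) had a mean of at least 1 RPKM. The 9 T and NK cell genes summed to 0.355 to 0.811 RPKM, with at most 3 reads in every mouse for 6 of them, and the 5 B cell genes to 0.69 to 1.31 RPKM; 0 of the 3 genes of these lists that could be tested passed on Adipoq. Among 7 neutrophil genes Ly6g was at 0, while S100a8 was at 3.35, 8.59, 2.49, 7.79, 7.31 and 4.79 RPKM in mice 1, 2, 3, 4, 5 and 16 and rose with Adipoq (slope 0.90 ± 0.13, edgeR adjusted p = 0.0019), although S100a9, the gene of its partner protein, was at 0.129 RPKM or less. The mast cell protease gene Mcpt4 was at 1.20, 0.418, 1.63, 1.07, 0.0340 and 0.512 RPKM, and the eosinophil gene Epx at 0; 0 of 5 genes tested of that list passed. The fibroblast and progenitor list (10 genes) summed to 218 to 359 RPKM and only Dpt of it rose with Adipoq (0.85 ± 0.17). In the mural list Acta2 and Cspg4 rose, calls lost without mouse 1 or 3. The 6 red blood cell rows summed to 183 to 434 RPKM, highest in mouse 16, with 0 of 6 passing; Hbb-b1 and Hbb-b2 are rows of the same locus, and without Hbb-b2 the sum was 129 to 297 RPKM. The 6 skeletal muscle genes summed to 1.27 to 4.94 RPKM, of which 1 could be tested and rose.

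Immediate early genes were abundant in every library. Fos was at 342, 245, 348, 354, 332 and 342 RPKM, Junb at 282 to 376 and Atf3 at 145 to 279 RPKM, and 0 of the 14 rows, Hspa1a and Hspa1b sharing a locus, of the immediate early and heat shock list passed on Adipoq (edgeR, also 0 on Cd68). In the circadian clock list (13 genes) Clock, Cry2 and Nr1d1 rose with Adipoq, Clock not without mouse 1 or 3, with Nr1d1 at 14.1, 22.1, 15.6, 31.5, 20.2 and 23.8 RPKM. Of 10 interferon response genes 2 rose, among them Ifit3. In the cell cycle list 0 of 8 passed, in cholesterol synthesis 1 of 8 and in housekeeping 1 of 8 (B2m, 0.34 ± 0.08, lost without mouse 1), beside 12.3% of all genes with positive slopes.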
